A study of Homo sapiens with 2 samples.

Results

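The nascent strand intervals described here lie beside human centromeres. They were picked by a rule that uses position alone and was set with earlier results of these data known. The rule takes intervals whose midpoint lies within 3 Mb outside the centromere gap of the hg19 assembly on 17 chromosomes (1 to 12 and 16 to 20). These flanking intervals number 5504 of the 161869 named intervals. Each chromosome gives a flank of 3 Mb on the short arm and a flank of 3 Mb on the long arm, 34 flanks in all. The limits of the gaps are given only to 0.1 Mb, so every distance from a gap below is a distance from a rounded limit. They were set against the 132349 intervals on the rest of the same chromosomes. On chromosomes 1, 9 and 16 the gap also spans a block of satellite heterochromatin, so that the long-arm flank there begins beyond that block.

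The cells were U2OS, an osteosarcoma line labelled wild type and grown in RPMI with serum. They were arrested before S phase by a double thymidine block and collected 2 hours after release, and 2 libraries of size-selected, exonuclease-treated nascent DNA were sequenced. The 2 libraries form 1 group, and no untreated or undigested control was analysed here. Each interval carries a replication timing class, from very early to very late, through the 6 lists into which the authors sorted the intervals shared by both libraries. The sources used here do not say how classes were assigned or from which timing data. No label says that the libraries came from separate cultures, and the lists hold no value per library, so errors below are spreads between chromosomes within 1 shared set. The number of reads behind an interval is unknown.

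Human centromeres are built on long arrays of alpha satellite DNA, bordered by other satellites and by segmental duplications, which are long blocks copied between chromosomes. The arrays carry the centromere-specific histone CENP-A and the surrounding DNA is packed as heterochromatin, marked by methylated lysine 9 of histone H3 and bound by HP1 proteins. Such DNA is known to replicate mostly in the second part of S phase. Short nascent strands mark where replication starts because their RNA primer protects them from lambda exonuclease. The satellite arrays themselves are not part of the hg19 chromosomes, so the flanks are the nearest assembled sequence. Genes, repeats and base composition at the intervals were not analysed here, and U2OS is known for a rearranged karyotype whose copy number at these flanks was not tested.

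The flanks differed greatly from one another in number of intervals and in timing. A flank held between 12 and 532 intervals, with a median of 109.5. The fullest were the long-arm flank of chromosome 20 with 532 intervals, the long-arm flank of chromosome 2 with 419 and the long-arm flank of chromosome 17 with 387. The emptiest were the short-arm flank of chromosome 19 with 12 intervals, the short-arm flank of chromosome 5 with 18 and the long-arm flank of chromosome 6 with 21. Of the 34 flanks, 9 held over 250 intervals and 9 held under 50. The 5 fullest flanks together held 2086 intervals, or 37.9% of all flanking intervals.

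**Figure D1:**
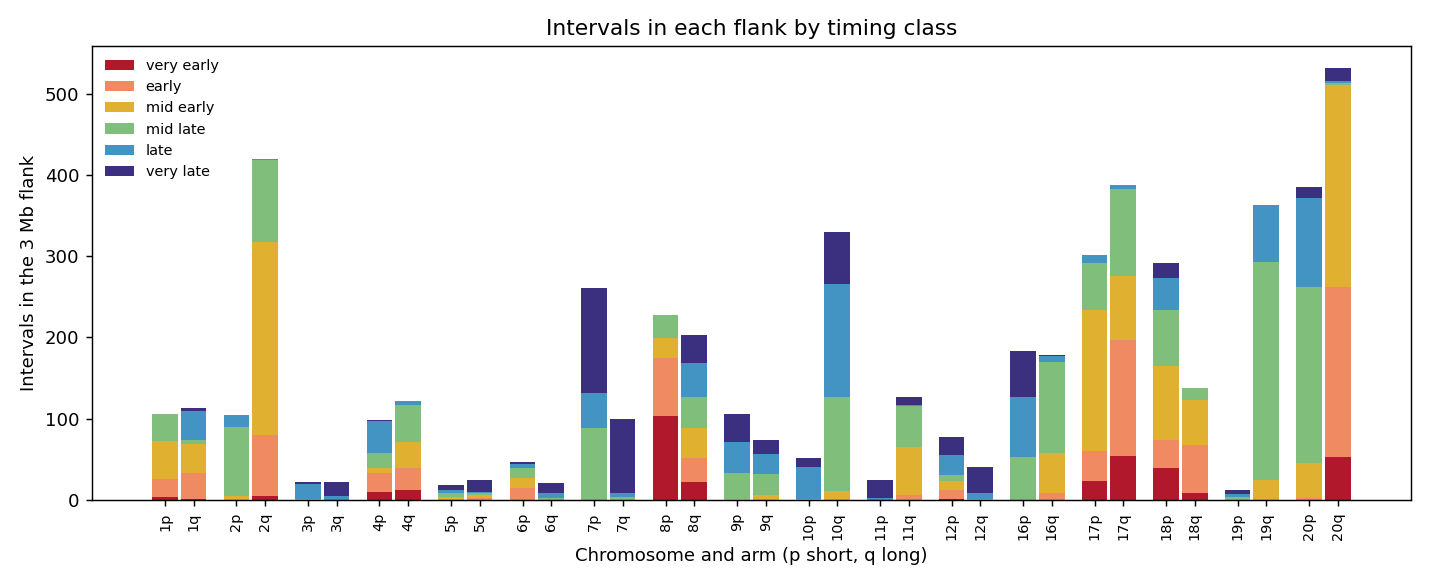
Number of intervals (vertical axis) in each 3 Mb flank, by chromosome and arm (p, short; q, long), with bars stacked by timing class. Counts run from 12 on 19p to 532 on 20q, and late and very late intervals make up over 50% of both flanks on chromosomes 3, 5, 7, 9, 10 and 12.

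Timing class split the flanks into contrasting kinds. The 3 earlier classes (very early, early and mid early) made up over 50% of the intervals in 12 flanks, and the late and very late classes made up over 50% in 16. In 7 flanks over 90% of intervals were late or very late: both flanks of chromosome 3, the short-arm flanks of chromosomes 10 and 11, and the long-arm flanks of chromosomes 6, 7 and 12. These shares rest on few intervals: 22 on 3p, 22 on 3q, 51 on 10p, 25 on 11p, 21 on 6q, 99 on 7q and 40 on 12q. On the short arm of chromosome 11, 23 of 25 flanking intervals were very late, and on the long arm of chromosome 7 the very late class had 91 of 99. At the other end, 95.9% of the 532 intervals beside the centromere on 20q were in the 3 earlier classes, as were 89.1% of the 138 on 18q and 87.3% of the 228 on 8p. The 8p flank was the only one in which the very early class was the most frequent, with 103 intervals. No interval of the 3 earlier classes was found in 10 flanks, and no very early interval in 21.

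Intervals of 1 class often followed one another without a break. The longest uninterrupted stretch in the flanks by number of intervals was mid late, 112 intervals on chromosome 19 from 29723678 to 30215930, over 492 kb. A mid early stretch of 83 intervals on chromosome 17 from 21117782 to 21424860 was shorter, at 307 kb, and its intervals were broad, with a median of 1180 bp. The longest very early stretch held 48 intervals on chromosome 8 from 41516815 to 41710045, the longest early one 41 intervals on chromosome 20 from 31123189 to 31238502, and the longest late one 42 intervals on chromosome 10 from 43484183 to 43621262. The longest very late stretch held 97 intervals on 7p, from 56402716 to 57487004, over 1084 kb. Over all flanks, a very late stretch spanned a median of 89.6 kb, against 12.7 kb for a very early one. Their median numbers of intervals were 6 and 4. Stretches were cut at the gap and at the 3 Mb limit, and those in the rest of the chromosomes were not measured. The share of neighbouring pairs with different classes was 13.1 ± 6.52% in the flanks and 11.8 ± 2.68% in the rest (mean ± SD, n = 17 chromosomes), a difference that did not pass the test described next (adjusted p = 0.427, permutation).

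**Figure D2:**
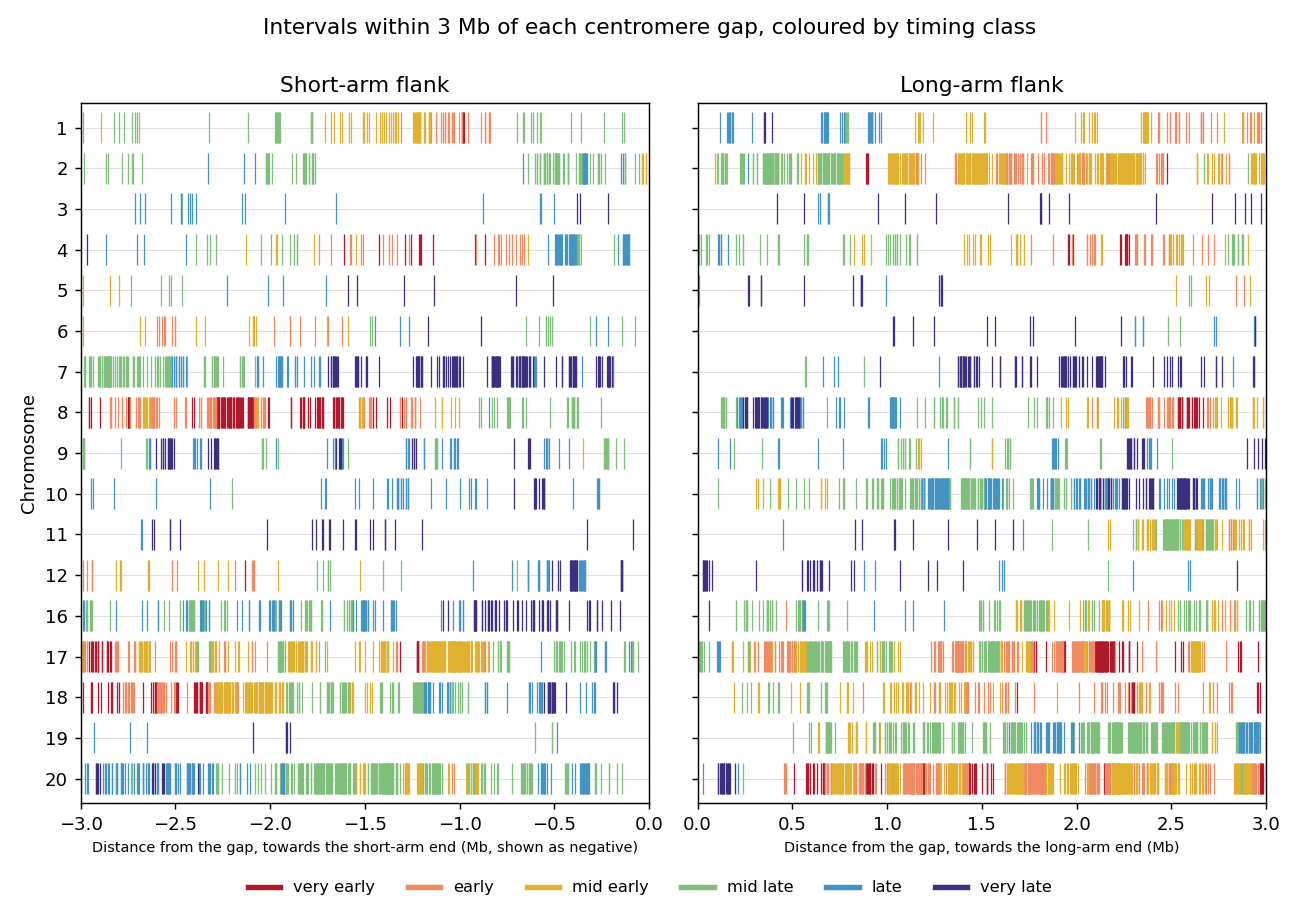
Position of every flanking interval as distance from the gap in Mb (horizontal axes; the gap lies at 0 in both panels), 1 row per chromosome, coloured by timing class. Chromosomes 3, 5 and 6 are sparsely marked, and very late intervals (dark) are most numerous on 7p (130), 7q (91) and 10q (63).

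The comparison of flanks with the rest of their chromosome asks whether the intervals nearest the centromere differ from those of the arms. For each measure the flank and rest values of a chromosome were paired, and the mean difference or mean log2 ratio was tested by a two-sided exact sign-flip permutation test over the 17 chromosomes, with Benjamini-Hochberg adjustment over 11 measures. Since chromosomes are no biological replicates, the p measures only how regularly a difference returned among them.

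Flanking intervals belonged to later timing classes. Late and very late intervals made up 38.1 ± 28.8% of intervals in the flanks, against 7.96 ± 4.22% in the rest (mean ± SD, n = 17 chromosomes). These means weigh each chromosome equally, whatever its number of intervals. Counted over all intervals, 15.0% of flanking ones were late and 11.6% very late, against 5.25% and 1.89% in the rest. The very early, early and mid early classes then made up 6.10%, 14.7% and 23.5%, against 14.5%, 26.5% and 30.1%. The late and very late share per chromosome was higher in the flanks on 14 of 17 chromosomes, by a mean of 30.2 percentage points (exact permutation test, adjusted p = 0.00235). The 3 earlier classes made up 35.2 ± 27.5% in the flanks and 68.8 ± 10.5% in the rest, a difference of −33.6 points that held on 14 of 17 chromosomes (exact permutation test, adjusted p = 0.00403). Here the exceptions were chromosomes 4, 8 and 18. The late and very late share ranged over chromosomes from 1.89% to 97.7% in the flanks and from 1.05% to 15.1% in the rest. The flanks of a chromosome are much shorter than its rest, so these ranges do not compare regions of equal size. In equal steps of 1 Mb, the SD of this share over chromosomes was 32.6 to 38.8 points within the flanks. In the steps from 3 to 10 Mb it was 8.53 to 35.4 points, and a difference in spread was not tested. Chromosome 3 had the highest flanking share, 97.7% against 5.08% in its rest, and chromosome 7 followed with 74.7% against 4.74%. The exceptions for this share were chromosomes 2, 17 and 18, where the late and very late share was lower in the flanks, at 3.06%, 1.89% and 13.7%, than in the rest, at 8.46%, 3.28% and 14.5%. Without the 1 Mb next to the gap the difference in late and very late share was 22.1 points (adjusted p = 0.0345), and that in the 3 earlier classes was −23.5 points and no longer passed (adjusted p = 0.0586, exact permutation tests; an alternative chosen after the data were examined).

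By single class, the 2 latest classes took a larger share of flanking intervals and the 3 earlier classes a smaller one. Very late intervals averaged 19.2 ± 19.96% of a chromosome's flanking intervals and 2.03 ± 1.22% of the rest (higher on 14 of 17 chromosomes, exact permutation test, adjusted p = 0.00254). Late intervals averaged 19.0 ± 14.5% in the flanks and 5.93 ± 3.37% in the rest (higher on 12 of 17, exact permutation test, adjusted p = 0.00254). Very early intervals averaged 4.19 ± 7.64% against 13.7 ± 5.07% and early ones 11.7 ± 10.8% against 25.2 ± 6.13% (lower in the flanks on 14 and on 12 of 17; adjusted p = 0.00254 for both, exact permutation tests). The mid early share was 19.3 ± 15.2% in the flanks and 29.9 ± 4.06% in the rest (adjusted p = 0.0303, permutation). This last difference lost its call without chromosome 3, 7, 9, 10, 16 or 19, with differences of −9.21 to −9.83 points, and in 5 of 10 alternatives. The mid late share was 26.7 ± 15.7% in the flanks and 23.2 ± 6.97% in the rest (adjusted p = 0.574, permutation). Adjustment here was over 7 comparisons added after the data were examined. Counted together, the flanks held 638 of the 3143 very late intervals on these chromosomes (20.3%) and 824 of the 7772 late ones (10.6%), against 3.99% of intervals of all classes.

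**Figure D3:**
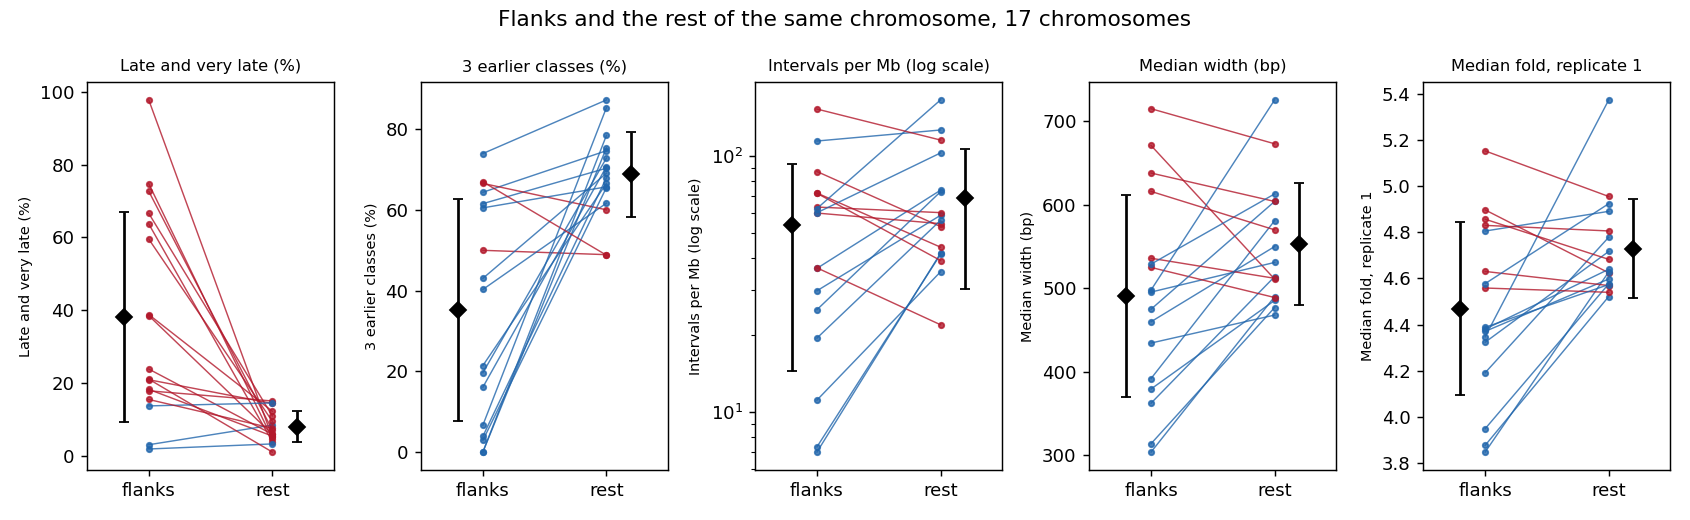
Values of 17 chromosomes in the flanks (left) and in the rest (right) for 5 measures, with lines joining the 2 values of a chromosome, red where the flank is higher and blue where it is lower. Black diamonds and bars give the mean and SD; the late and very late share averages 38.1% in the flanks and 7.96% in the rest.

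Of the 1 Mb steps out to 10 Mb, the one next to the gap had the latest intervals. In the first Mb from the gap, the 3 earlier classes averaged 14.1 ± 16.9% and the late and very late classes 52.4 ± 33.8% (n = 16 chromosomes with at least 10 intervals there). In the second Mb these shares were 33.7 ± 35.4% and 40.6 ± 38.8%, and in the third Mb 52.1 ± 38.6% and 26.6 ± 32.6% (n = 17). The share of the 3 earlier classes differed by −37.96 points between the first and the third Mb over the 16 chromosomes with enough intervals in both zones (lower on 11 and higher on 3, exact permutation test, adjusted p = 0.00732 over 3 comparisons). With a −log10 q of 5 or more required, 12 chromosomes could be compared and the difference of −35.8 points had an adjusted p of 0.0586 (exact permutation test). Further out the earlier share averaged 41.7 ± 31.7% at 3 to 4 Mb from the gap and 56.0 ± 32.0% at 4 to 5 Mb. It was highest at 5 to 6 Mb, at 70.4 ± 25.8%, and at 6 to 7 Mb, at 68.6 ± 28.5%. It was 54.8 ± 29.6% at 7 to 8 Mb, 48.9 ± 36.9% at 8 to 9 Mb and 47.8 ± 34.7% at 9 to 10 Mb. The late and very late share was 9.99 ± 12.3% at 5 to 6 Mb and 5.03 ± 8.53% at 6 to 7 Mb. The course was not even, since the late and very late share was 30.8 ± 35.4% at 8 to 9 Mb. The interval closest to the gap was late or very late on 18 of the 34 flanks, mid late on 13 and mid early on 3, and was of the early or very early class on none.

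**Figure D4:**
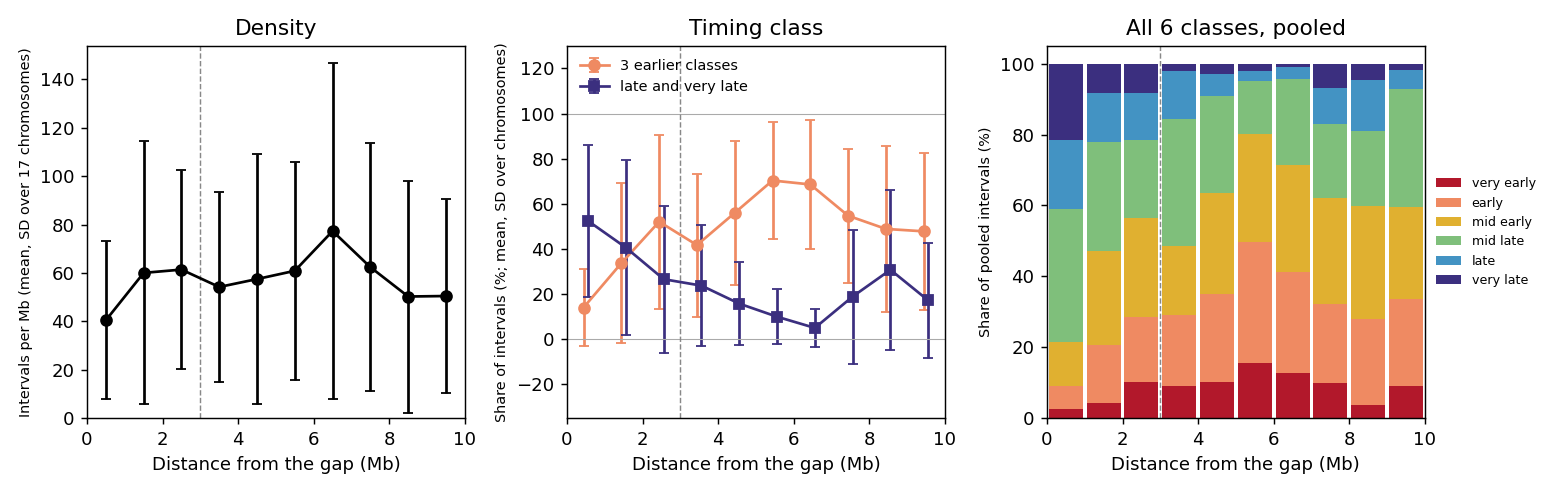
Interval density (left), share of the 3 earlier and of the late and very late classes (middle) and pooled class makeup (right) in steps of 1 Mb from the gap, with bars for the SD over chromosomes; the dashed line marks the 3 Mb limit. Density averages 40.5 intervals per Mb in the first Mb and 61.4 in the third Mb, and the earlier share 14.1% and 52.1%.

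Intervals were sparser beside some centromeres and denser beside others. Density was 54.0 ± 39.4 intervals per Mb in the flanks and 68.5 ± 38.1 in the rest (mean ± SD, n = 17), with a mean ratio of 0.654. It was lower in the flanks on 10 of 17 chromosomes and higher on 7, and the difference did not pass the threshold (exact permutation test, adjusted p = 0.0675). It passed without chromosome 2, 4, 8 or 18, whose flanks were denser than their rest (log2 ratios of −0.69 to −0.70, adjusted p = 0.0375 to 0.0486, exact permutation tests). The lowest flanking densities were 7 intervals per Mb on chromosome 5, against 41.8 in its rest, and 7.33 on chromosome 3, against 41.4 in its rest. The highest was 153 per Mb on chromosome 20, against 116 in its rest. Undetermined bases inside the flanks were not subtracted here, so a low density and less assembled sequence cannot be told apart. All cells were collected 2 hours after release, so density at other times of S phase was not measured. The sequence covered by intervals did not pass either, with 45.6 ± 40.3 kb per Mb in the flanks and 63.2 ± 44.9 kb per Mb in the rest (ratio 0.555, exact permutation test, adjusted p = 0.0506). It passed without chromosome 2, 4, 8, 10, 18 or 20 (log2 ratios of −0.91 to −0.97). Within the flanks, density was lower in the first Mb (40.5 ± 32.7 per Mb) than in the third Mb (61.4 ± 41.0 per Mb), by a ratio of 0.597 on 12 of 17 chromosomes (exact permutation test, adjusted p = 0.0306). This lost its call without chromosome 6, 8, 10, 11, 18 or 19 (log2 ratios of −0.51 to −0.72), and with a −log10 q of 5 or more required it had an adjusted p of 0.156 (exact permutation tests).

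Neighbouring intervals lay farther apart in the flanks, most of all on chromosomes 3, 5 and 6. The median distance to the next interval of any class was 13489 ± 19729 bp in the flanks and 3294 ± 1219 bp in the rest, with a mean ratio of 2.06, and was longer on 13 of 17 chromosomes (exact permutation test, adjusted p = 0.0186). Over chromosomes the median of these distances was 4806.5 bp in the flanks and 3171 bp in the rest. The longest were 63391 bp on chromosome 5, 52782.5 bp on chromosome 3 and 45396 bp on chromosome 6. Against intervals 3 to 13 Mb from the gap the log2 ratio was 0.20 and did not pass (exact permutation test, adjusted p = 0.610). With 5 Mb trimmed from both chromosome ends it was 0.82 (adjusted p = 0.111), and without chromosomes 1, 9 and 16 it was 0.98 (adjusted p = 0.107, exact permutation tests). The share of 100 kb windows with no interval was 26.7 ± 18.3% in the flanks and 23.9 ± 11.6% in the rest, which did not differ past the threshold (adjusted p = 0.574, exact permutation test). It was 58.3% in the flanks of chromosomes 3 and 5, against 32.8% and 31.6% in their rest. It was 3.33% in those of chromosomes 17 and 20, against 9.17% and 6.51% in theirs. An empty stretch of 500 kb or more was found in 10 flanks, and the longest was 1291 kb on 19p.

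Taken without regard to class, flanking intervals were narrower and slightly less enriched. Median width was 491 ± 121 bp in the flanks and 553 ± 72.9 bp in the rest, a ratio of 0.869 with narrower intervals on 11 of 17 chromosomes (exact permutation test, adjusted p = 0.0414). Median fold enrichment, the authors' value for the replicate 1 peak at the interval, was 4.47 ± 0.37 in the flanks and 4.73 ± 0.21 in the rest, a ratio of 0.943 with lower values on 11 of 17 (adjusted p = 0.0276, exact permutation test). The median −log10 q of these peaks was 4.91 ± 0.90 in the flanks and 5.19 ± 0.46 in the rest, and did not differ past the threshold (adjusted p = 0.160, permutation). Against intervals 3 to 13 Mb from the gap, the log2 ratio was −0.0093 for width and −0.036 for fold, and neither passed (adjusted p = 0.900 and 0.606, exact permutation tests). Both calls were also lost with 5 Mb trimmed from the chromosome ends (adjusted p = 0.256 for width and 0.201 for fold) and without chromosomes 1, 9 and 16 (0.185 and 0.107, exact permutation tests). With flanks of 2 Mb the width call was lost too (adjusted p = 0.0510, exact permutation test). The width call was lost without any 1 of chromosomes 1, 3, 5, 6, 7, 9, 12, 16 and 19 (log2 ratios of −0.17 to −0.21), and the fold call without chromosome 1, 3, 5, 6 or 19 (−0.071 to −0.078). The narrowest flanking medians were 304 bp on chromosome 5, 314 bp on chromosome 6 and 362.5 bp on chromosome 3. The widest was 715 bp on chromosome 17.

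Widths differed in opposite directions by timing class, and their mean over classes did not differ past the threshold. The mean over classes of the log2 ratio of flanking to other widths was 0.064 (exact permutation test, adjusted p = 0.557), and that of fold was −0.018 (adjusted p = 0.557). Late intervals were wider in the flanks, with a median of 611 ± 236 bp against 436 ± 43.7 bp in the rest (n = 15 chromosomes with at least 10 late intervals in both). The ratio was 1.33, with wider intervals on 14 of 15 chromosomes (exact permutation test, adjusted p = 0.00159). The call was lost with flanks of 2 Mb (log2 ratio 0.43, adjusted p = 0.0677) and of 5 Mb (0.29, adjusted p = 0.0889, exact permutation tests). The largest gaps were on chromosome 17, with 1200 bp in the flanks and 400 bp in the rest, and on chromosome 8, with 1120.5 bp and 504 bp. The flanking value of chromosome 17 rests on few late intervals, 9 on 17p and 4 on 17q. Very late intervals had a median of 618 ± 422 bp in the flanks and 368 ± 68.4 bp in the rest, and were wider on 10 of 12 chromosomes, but the spread was large and the difference did not pass (ratio 1.47, exact permutation test, adjusted p = 0.146). Without chromosome 6, where 186 bp in the flanks stood against 453 bp in the rest, it passed (log2 ratio 0.73, exact permutation test, adjusted p = 0.0254). The flanking value of chromosome 6 rests on few very late intervals, 2 on 6p and 12 on 6q. No other omission of 1 chromosome changed the call. Without chromosome 8, where 1866 bp in the flanks stood against 393 bp in the rest, the log2 ratio was 0.41 (exact permutation test, adjusted p = 0.292). Early intervals were narrower in the flanks on all 9 chromosomes compared, with 439 ± 100.0 bp against 549 ± 86.8 bp in the rest (ratio 0.790, exact permutation test, adjusted p = 0.0233). This passed in 4 of 10 alternatives, which gave log2 ratios of −0.35 to −0.18.

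The other widths did not pass the threshold. Mid early widths were 536 ± 267 bp in the flanks and 600.2 ± 101 bp in the rest (n = 13), and mid late widths 517 ± 153 bp and 544 ± 61.9 bp (n = 14; adjusted p = 0.274 and 0.369, permutation). With flanks of 5 Mb both passed as narrower in the flanks, at log2 ratios of −0.38 and −0.22 (adjusted p = 0.00992 and 0.0364, permutation). Very early widths were 549 ± 118 bp in the flanks and 491 ± 70.4 bp in the rest on 5 chromosomes, where the smallest p that the exact test can give is 0.0625. The difference between the width ratios of the 2 later and the 3 earlier classes was itself tested on the 13 chromosomes with both. It was 0.79 on the log2 scale and positive on 12 of 13 (exact permutation test, adjusted p = 0.0233), and it passed in 5 of 10 alternatives. In none of the 6 classes did fold enrichment differ past the threshold between flanks and rest (adjusted p = 0.274 to 0.599, exact permutation tests; none had an unadjusted p under 0.05, the lowest being 0.105), except that with flanks of 5 Mb mid early fold was lower in the flanks, at −0.088 (adjusted p = 0.0259, permutation). These 13 comparisons per class were added after the data were examined and adjusted together. Without the first Mb the log2 ratio of late widths was 0.21 (10 chromosomes, adjusted p = 0.0762) and that of very late widths 0.20 (7 chromosomes, adjusted p = 0.572, exact permutation tests). With a −log10 q of 5 or more required, the late ratio was 0.30 on 11 chromosomes and did not pass (adjusted p = 0.163, exact permutation test).

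**Figure D5:**
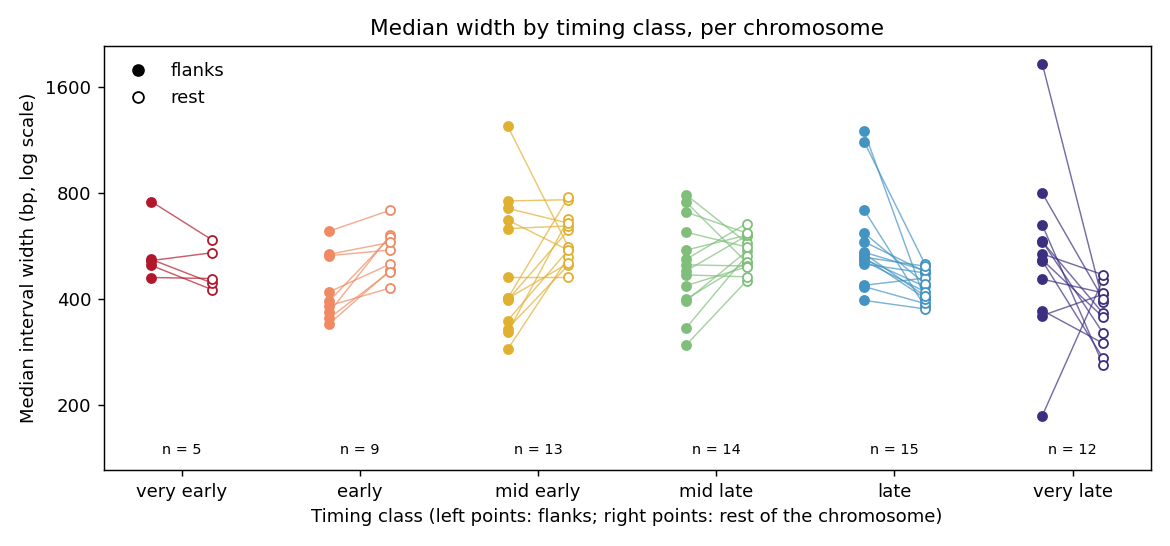
Median interval width (bp, log scale) of each timing class in the flanks (filled, left) and in the rest of the same chromosome (open, right), with a line per chromosome that had at least 10 intervals of the class in both. Early intervals are narrower in the flanks on 9 of 9 chromosomes and late intervals wider on 14 of 15.

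The broadest flanking intervals lay together on the long arm of chromosome 8. Of the 26 flanking intervals of 6 kb or more, 8 were in the first Mb of that flank, 217 kb to 547 kb from the gap. The widest of all was a very late interval of 17611 bp on chromosome 8 from 47084815 to 47102425, at 8.50-fold. The next were a late interval of 14296 bp from 47009646 to 47023941 at 6.07-fold and a very late interval of 11035 bp from 47044109 to 47055143 at 5.18-fold. A mid early interval of 9159 bp on chromosome 2 from 97352701 to 97361859 came next, at 8.24-fold, followed by a very late interval of 8734 bp on chromosome 8 from 47120178 to 47128911, at 5.19-fold. These folds were all above the flanking median of 4.62. Those of 8.50 and 8.24 also exceeded the upper quartile of flanking folds, 6.16. In the first Mb of the 8q flank, 63 of 73 intervals were late or very late and the median width was 1481 bp. In the second Mb and the third Mb the median widths were 407 bp and 397 bp, and no interval there reached 3 kb. The 2 libraries' peaks overlapped less in that first Mb: shared bases made up a median of 47.2% of an interval, against 51.3% in the second Mb and 63.6% in the third Mb. Intervals of 3 kb or more numbered 191 of 5504 in the flanks (3.47%) and 5222 of 132349 in the rest (3.95%), a difference that was not tested.

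The most enriched flanking intervals were spread over 6 chromosomes, 629 kb to 2843 kb from the gap. The leading one was a late interval of 1560 bp on chromosome 20 from 23617928 to 23619487, at 99.3-fold. It was followed by a mid early interval on chromosome 17 from 21360878 to 21362281, at 86.0-fold, which lies in the long mid early stretch described above. Next came 2 late intervals, at 74.7-fold on chromosome 10 (44811866 to 44812409) and at 49.1-fold on chromosome 16 (32648845 to 32649804). Behind them stood a mid late interval at 43.7-fold on chromosome 20 (24562210 to 24563282). The other 5 of the 10 highest reached 32.9-fold to 43.4-fold and lay on chromosomes 10, 16, 17, 18 and 19. Of the 10, 5 were late intervals, 2 mid late, 2 mid early and 1 early. Both libraries' peaks covered between 83.4% and 97.7% of each of them. A fold of 20 or higher was reached by 50 of 5504 flanking intervals (0.908%) and 1233 of 132349 in the rest (0.932%), which was not tested.

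Short-arm and long-arm flanks of the same chromosome often differed in timing, but in no constant direction. Short-arm flanks held 45.4 ± 38.9 intervals per Mb and long-arm flanks 62.5 ± 53.0 (mean ± SD, n = 17), with 26.6 ± 31.4% and 36.6 ± 34.1% of intervals in the 3 earlier classes. Neither difference passed the threshold (adjusted p = 0.385 for both, exact permutation tests over 4 comparisons), nor did those in width (476 ± 135 bp and 499 ± 107 bp, adjusted p = 0.385) and fold (4.40 ± 0.40 and 4.47 ± 0.42, adjusted p = 0.519). On 7 chromosomes the 3 earlier classes differed between the arms by 30 percentage points or more. On chromosome 20 they made up 11.7% of the short-arm flank and 95.9% of the long-arm flank, and on chromosome 2 4.81% and 75.7%. Chromosomes 11, 16 and 18 had the same direction. Chromosomes 6 and 8 had the opposite one, with 58.7% and 87.3% on the short arm against 0% and 43.3% on the long arm. The 11q flank, with 51.6% in the 3 earlier classes, had 114 of its 126 intervals in the third Mb. The 11p flank had none in these classes.

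The distance from the gap to the closest interval varied as widely as the counts. Counted from the rounded limits, it ranged from 5.89 kb on 5q to 1032 kb on 6q, with a median of 133 kb over the 34 flanks, and the shortest distances are finer than the 0.1 Mb step of the limits. It was under 100 kb on 11 flanks and over 400 kb on 7. The 6 intervals within 50 kb outside a rounded limit were narrow to moderate, from 114 bp to 828 bp, with folds of 2.29 to 6.35. The one closest to its limit, of the mid late class and 3.26-fold, was on chromosome 5 (49405836 to 49405949). The most enriched of these 6, also mid late and 6.35-fold, was on chromosome 17 (25309332 to 25309908). The others lay on chromosome 4 from 52708144 to 52708371 (mid late), chromosome 2 from 92281279 to 92281532 (mid early), chromosome 12 from 37926114 to 37926941 (very late) and chromosome 20 from 29428273 to 29429006 (late). At the outer limit, the interval just inside 3 Mb lay a median of 2984 kb from the gap and the one just outside 3023 kb, and the 2 had the same class on 17 of 34 flanks.

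On average over chromosomes, replicate 1 peaks were kept in the named intervals about as often beside centromeres as elsewhere. Peaks found only in replicate 2 could not be counted. Retention is the share of replicate 1 peak numbers, between the first and last in a region, whose peak overlaps a named interval, and assumes consecutive numbering. It was 70.8 ± 5.29% in the flanks and 70.8 ± 2.64% in the rest, a difference of −0.0068 points (SD 5.20 over 17 chromosomes; exact permutation test, adjusted p = 0.996). Leaving out each chromosome in turn gave −0.62 to 0.85 points. The lowest flanking value was 57.4% on chromosome 12, against 71.1% in its rest, and the highest 78.7% on chromosome 2, against 72.3%. Peaks of both libraries covered a median of 59.7 ± 4.73% of the bases of a flanking interval and 60.0 ± 1.35% elsewhere (adjusted p = 0.889, exact permutation test). Every flanking interval overlapped a replicate 1 peak, as did all but 124 of the 132349 in the rest (0.0937%), which was not tested. That overlap is no measure of agreement between libraries, since the intervals and the peak pieces both come from the authors' intersection of the 2 libraries.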

How the data were processed

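Per the submitters' processing notes, BWA, MACS2 and hg19 were used, without versions. The deposited broad peak list holds pieces shared by both libraries. Its fold enrichment (a ratio) and −log10 q, per the file's values, belong to whole replicate 1 peaks and were used as the authors deposited them. The −log10 p was not used. The 6 deposited interval lists, other than coordinates, hold no measurement. A name on 2 lines (319 flanking intervals) was counted once, as the span of both. This choice bears almost only on the very early class, where it applied to 318 of 336 flanking intervals and 18073 of 19163 in the rest. An interval took the values of the replicate 1 peak sharing most bases with it (at least 1 bp). The rest of a chromosome runs from its first to its last interval, without gap and flanks. Chromosomes entered with at least 20 intervals per region, or 10 per arm, zone or class. Density and covered sequence used all 17, with 0.5 added before log2. The sign-flip test was checked on simulated normal values, with a smaller spread than the log2 ratios of density and spacing here. That check does not cover ratios of such spread. The calculations used Python 3.11.15, numpy 2.4.6 and pandas 2.3.3.

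Members, limits and tests were chosen with earlier results of these data known. Named intervals are the 10 of highest fold (at least 200 bp wide), the 5 widest, those within 50 kb of a rounded gap limit, the 3 fullest and 3 emptiest flanks, and the longest stretch of each class. Others, such as flanks named as extremes or exceptions, were chosen after their values were seen. Sequence is not printed because no hg19 genome was used here.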

Additional observations from a re-analysis of the deposited data

Results flagged for a closer look

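Between the gap limits, which are given only to 0.1 Mb, 5 intervals were listed, and they enter no comparison above. Their midpoints lay 0.892 kb to 38.6 kb inside a rounded limit, less than its 0.1 Mb step, so they do not show signal in unassembled sequence. They were 2 mid late intervals on chromosome 17 from 25274839 to 25275472 and from 25279404 to 25279723, 1 mid late interval on chromosome 4 from 52684784 to 52685541, and 2 mid early intervals, on chromosome 2 from 92300837 to 92300947 and on chromosome 8 from 43838547 to 43838715. Their folds were 1.87 to 6.24.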

How the results depend on the processing

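Later timing of the flanks was the steadiest result: the difference in late and very late share stayed past the threshold in all 10 alternatives (21.0 to 40.7 points) and without each chromosome in turn (26.3 to 32.4). That in the 3 earlier classes did so in 9 of 10, and was −23.5 without the first Mb. Log2 ratios that changed side were as follows, and the cause was not tested. Density passed with flanks of 2 Mb (−0.82) and with every line counted (−0.73). Covered sequence passed with flanks of 2 Mb (−1.09) and 5 Mb (−0.83), a −log10 q of at least 5 (−1.05), widths of at least 200 bp (−0.86), every line (−0.96) and occupied 1 Mb windows (−0.84). Width no longer passed with flanks of 2 Mb (−0.24). Without the chromosome ends, width was −0.11, fold −0.059 and spacing 0.82. Against 3 to 13 Mb they were −0.0093, −0.036 and 0.20, and without chromosomes 1, 9 and 16 they were −0.17, −0.080 and 0.98. The first against the third Mb no longer passed without those chromosomes for density (−0.80), nor at a −log10 q of at least 5 for density (−0.76) and earlier share (−35.8 points). Leaving out each chromosome in turn gave −0.70 to −0.49 for density, −0.97 to −0.69 for covered sequence, −0.24 to −0.17 for width, −0.095 to −0.071 for fold and −0.88 to −0.51 for first against the third Mb density. Widths of late intervals passed in 6 of 10 alternatives (0.21 to 0.55 in all 10). No paired analysis was possible because the 2 libraries form 1 group and the lists hold no value per library; for the same reason no library could be left out. Subtraction of undetermined bases was not run, spacing and class changes have no value with every line counted, and retention has none at a −log10 q of at least 5.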
